A study of Mus musculus with 19 samples.

Results

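The 10 genes described here are the regulators and enzymes through which cells make mitochondria and keep their DNA: the coactivators Ppargc1a and Ppargc1b, the transcription factors Nrf1, Gabpa and Esrra, the mitochondrial DNA (mtDNA) machinery genes Tfam, Polg and Polrmt, and the deacetylases Sirt1 and Sirt3. They were chosen by name, and the array probes were assigned to them through the RefSeq accession each probe carries. All 10 genes were found, on 21 probes of 56605 in all, and 20 of those probes were bright enough to test. Together they make up 10 of the 25599 genes tested. Of these, 16103 have a gene symbol, and the others are accessions without one, each counted as a gene in all shares given below.

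The samples were hippocampi of 8-month-old mice in 3 groups. The UA group (n = 6), named for urolithin A, carried the APP/PS1 transgenes and received 200 mg of UA per kg per day by gavage in DMSO, starting at 6 months of age. A further 7 APP/PS1 mice, the vehicle group, carried the same transgenes and received DMSO. The 6 wild-type (WT) littermates lacked the transgenes and received DMSO, so all 3 groups share the gavage and the solvent. APP/PS1 (a strain from the Jackson Laboratory) is a model of amyloid deposition, in which prion protein promoter elements drive mutant APP and presenilin transgenes in the brain, and UA is a compound that gut bacteria make from dietary ellagitannins. A group of WT mice on UA was not analysed here, so any effect of UA without the transgenes cannot be read from these data. Each array was taken as 1 mouse, since the number of arrays in each group is the number of animals stated for it.

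As background, mitochondria carry a small circular genome, while nearly all of their proteins are encoded in the nucleus. PGC-1α and PGC-1β, the products of Ppargc1a and Ppargc1b, are coactivators: they bind no DNA themselves but dock on factors such as NRF1, GABP and the estrogen-related receptors, which switch on nuclear genes for respiration. Among the targets of those factors are TFAM, which packages mtDNA and starts its transcription, the RNA polymerase POLRMT and the DNA polymerase POLG. SIRT1, a nuclear NAD-dependent deacetylase, acts on PGC-1α, and SIRT3 deacetylates enzymes inside mitochondria. In the forebrain PGC-1α is known to be abundant in parvalbumin interneurons. Urolithin A is best known for inducing mitophagy, the clearance of damaged mitochondria. The comparisons here ask whether genes for building mitochondria differ with the transgenes or with the compound.

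Levels are given as the log2 of the green (Cy3) array signal relative to the array's 75th percentile over probes, so 0 is the 75th percentile and a difference of 1 is a doubling. The level of one probe cannot be set against that of another. The 75th percentile lay between 450 and 1199 intensity units, and each array had 51.4% to 59.4% of its probes well above background. Precision is set by the count of arrays. APP/PS1 vehicle arrays 3 and 7 stood apart from the rest, with mean correlations of 0.9715 and 0.9723 with the other arrays, so the differences of the 10 genes, the list calls and the medians that moved most are also given without them. The arrays lay on 3 slides, each with its own scan date in the file headers, so slide and scan cannot be told apart. Slide 1 held 2 APP/PS1 vehicle arrays and all 6 WT arrays, slide 2 held 3 UA arrays and 5 APP/PS1 vehicle arrays, and slide 3 held 3 UA arrays. Sex, read from Xist and Y-linked genes, was female for 1 of 6 UA, 3 of 7 APP/PS1 vehicle and 1 of 6 WT arrays.

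The promoter windows of 6 of the genes are shown because the regulators on this list are also each other's textbook targets, so the letters upstream of each gene show which of the others' recognition motifs are present. Each is the stretch of 250 bases before the start of 1 RefSeq transcript (GRCm38.p6), which need not be the gene's outermost start, written 5′ to 3′ along the gene, with capitals for a match to the NRF1 core GCATGCG or to the ETS core CCGGAAG that GABP recognises, on either strand. The windows are those of Ppargc1a (chr5:51567726-51567975, minus strand), Esrra (chr19:6921809-6922058, minus strand), Gabpa (chr16:84834874-84835123, plus strand), Tfam (chr10:71238045-71238294, minus strand), Polg (chr7:79466274-79466523, minus strand) and Polrmt (chr10:79746582-79746831, minus strand).
Ppargc1a promoter window: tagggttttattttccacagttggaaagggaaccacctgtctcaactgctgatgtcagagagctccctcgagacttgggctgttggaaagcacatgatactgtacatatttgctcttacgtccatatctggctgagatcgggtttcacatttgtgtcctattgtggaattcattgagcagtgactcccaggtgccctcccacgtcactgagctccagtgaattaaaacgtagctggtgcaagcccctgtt
Esrra promoter window: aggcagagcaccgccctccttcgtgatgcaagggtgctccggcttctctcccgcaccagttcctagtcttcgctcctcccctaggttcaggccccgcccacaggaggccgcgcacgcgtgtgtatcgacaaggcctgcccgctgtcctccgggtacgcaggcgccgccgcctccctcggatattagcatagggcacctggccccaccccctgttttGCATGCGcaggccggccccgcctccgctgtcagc
Gabpa promoter window: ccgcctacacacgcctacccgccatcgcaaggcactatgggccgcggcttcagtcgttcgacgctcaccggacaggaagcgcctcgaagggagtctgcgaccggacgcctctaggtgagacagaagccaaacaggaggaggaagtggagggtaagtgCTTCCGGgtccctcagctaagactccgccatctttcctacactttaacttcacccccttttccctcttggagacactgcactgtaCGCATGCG
Tfam promoter window: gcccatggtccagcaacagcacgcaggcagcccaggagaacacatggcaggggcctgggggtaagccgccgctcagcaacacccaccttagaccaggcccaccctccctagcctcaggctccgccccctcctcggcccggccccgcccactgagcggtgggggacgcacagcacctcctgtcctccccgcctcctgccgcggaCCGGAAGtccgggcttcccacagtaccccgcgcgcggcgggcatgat
Polg promoter window: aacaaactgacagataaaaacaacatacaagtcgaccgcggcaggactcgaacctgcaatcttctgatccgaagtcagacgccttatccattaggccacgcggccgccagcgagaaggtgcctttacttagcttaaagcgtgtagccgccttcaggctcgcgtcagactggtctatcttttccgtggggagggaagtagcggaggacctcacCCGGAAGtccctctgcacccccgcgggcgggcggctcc
Polrmt promoter window: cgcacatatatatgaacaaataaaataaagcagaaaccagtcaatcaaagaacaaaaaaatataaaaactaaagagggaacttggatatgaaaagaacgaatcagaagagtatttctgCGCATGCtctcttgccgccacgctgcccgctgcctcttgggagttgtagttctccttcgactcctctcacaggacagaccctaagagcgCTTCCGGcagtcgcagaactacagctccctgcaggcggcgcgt

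These transcript starts lie inside the annotated genes, by 548128 bases from the outermost start for Ppargc1a, 1638 for Polg, 284 for Tfam, 240 for Esrra, 233 for Gabpa and 23 for Polrmt, so the promoters of transcripts that start elsewhere are not shown. Tfam and Polg each held 1 ETS core, 47 and 38 bases before the start. Polrmt held an ETS core 43 bases and an NRF1 core 132 bases before the start. Gabpa held an ETS core 93 bases before the start and, ending next to it, a palindromic run in which the NRF1 core matches on both strands with overlap. Esrra held an NRF1 core 34 bases before the start, and 1 of 2 Sirt3 windows held an ETS core. No match to either core was found in the windows of Ppargc1a, Nrf1 and Sirt1, which says only that these letters are not in those windows. Of 32851 promoter windows of the same length, 3.02% held the NRF1 core and 6.91% the ETS core. A further pair of motifs, the estrogen-related receptor motif AAGGTCA (4.08% of all windows) and the cAMP response element core TGACGTC (2.78%), were found in none of the windows of the 9 genes searched. Such a match is a description of the sequence and no measure of binding.

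None of the 10 genes passed the test in any of the 3 comparisons (limma adjusted p under 0.05 over all 25599 genes). The differences that came nearest were lower Ppargc1a and Ppargc1b in APP/PS1 vehicle hippocampus than in WT, by 0.36 and 0.31 on the log2 scale, and, in UA against APP/PS1 vehicle, a Ppargc1a level higher by 0.36 and a Polg level lower by 0.19. Among all genes, the share called was 0% for UA against APP/PS1 vehicle, where 15.5% had an unadjusted p under 0.05. It was 5.02% for APP/PS1 vehicle against WT, where 24% had such a p, and 0.0938% for UA against WT, where 8.81% had one. An unadjusted p under 0.05 was found for 2 of the 10 genes in UA against APP/PS1 vehicle (Ppargc1a and Polg), for 2 in APP/PS1 vehicle against WT (Ppargc1a and Ppargc1b) and for 1 in UA against WT (Ppargc1b), which is near those background shares. The median difference over the 10 genes was 0.026 for UA minus APP/PS1 vehicle, -0.029 for APP/PS1 vehicle minus WT and -0.001 for UA minus WT, beside medians over all genes of -0.0072, 0.0025 and -0.0197. The groups overlapped for each of the 10 genes in each comparison. Of all genes, only 0.879%, 2.34% and 1.05% had groups that did not overlap, so none among 10 is near that background. Without APP/PS1 vehicle arrays 3 and 7, again none of the 10 genes passed. The UA minus APP/PS1 vehicle differences were then 0.30 for Ppargc1a, 0.09 for Ppargc1b, 0.15 for Nrf1 and -0.15 for Polg, and between -0.08 and 0.07 for the other 6 genes. The APP/PS1 vehicle minus WT differences were -0.30 for Ppargc1a, -0.32 for Ppargc1b and 0.08 for Polg, and between -0.06 and 0.06 for the other 7. The first 2 comparisons share the APP/PS1 vehicle arrays, so an opposite sign in the pair is in part built in.

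**Figure D1:**
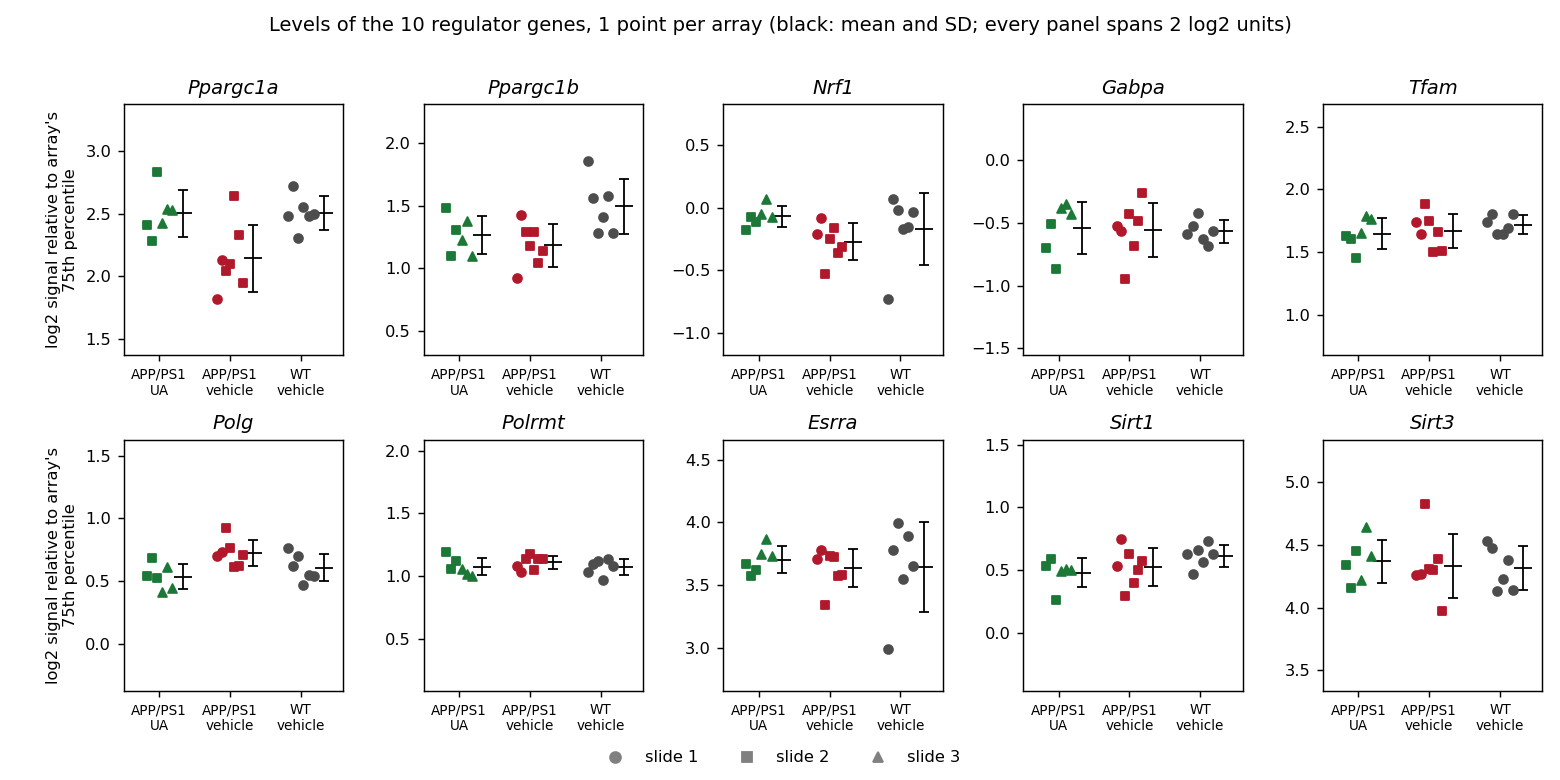
Level of each of the 10 genes (log2 signal relative to the array's 75th percentile) in APP/PS1 UA, APP/PS1 vehicle and WT vehicle hippocampus, at the brightest probe of the gene; points are arrays, their shape is the slide, and black bars are the mean and SD (n = 6, 7 and 6). Ppargc1a is at 2.50, 2.14 and 2.51 on average, and the groups overlap in every panel.

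Ppargc1a, the coactivator often called the master regulator of mitochondrial biogenesis, was lower in APP/PS1 vehicle mice than in either other group, by an amount that missed the threshold. Its level was 2.28 at the lowest, 2.48 at the median and 2.83 at the highest of the 6 UA arrays. The 7 APP/PS1 vehicle arrays had 1.82, 2.10 and 2.64 on the same measures, and the 6 WT arrays 2.31, 2.49 and 2.72. All 6 UA arrays lay above the APP/PS1 vehicle mean. Of the vehicle arrays, 5 lay below every UA and every WT array, and the other 2, replicates 5 and 6, lay within the range of both. The UA minus APP/PS1 vehicle difference was 0.36 (SE 0.115, 1.28-fold, limma adjusted p = 0.178), from means of 2.50 ± 0.18 and 2.14 ± 0.27 (SD). The APP/PS1 vehicle minus WT difference was -0.36 (SE 0.115, 1.29-fold lower, adjusted p = 0.0718), with WT at 2.51 ± 0.13. UA minus WT was 0.00, with a 95% interval of -0.25 to 0.25, which leaves room for a difference of up to that size.

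The second Ppargc1a probe gave 0.35 for UA minus APP/PS1 vehicle, -0.32 for APP/PS1 vehicle minus WT and 0.03 for UA minus WT. The 2 probes correlated at r = 0.94 over the 19 arrays, which share the same RNA. Within slide 1, 2 APP/PS1 vehicle arrays averaged 1.97 and 6 WT arrays 2.51, and within slide 2, 3 UA arrays averaged 2.51 and 5 APP/PS1 vehicle arrays 2.21. With slide as a fixed block the APP/PS1 vehicle minus WT difference was -0.53 (adjusted p = 0.165) and UA minus APP/PS1 vehicle was 0.29 (adjusted p = 0.634). The UA and WT groups share no slide, and their blocked difference of -0.24 (adjusted p = 0.945) is reached only through the vehicle arrays. Single arrays decide the call: the APP/PS1 vehicle minus WT difference passed the test without APP/PS1 vehicle replicate 5 (-0.44, adjusted p = 0.0136) and without WT replicate 3 (-0.40, adjusted p = 0.0467), and in no other case when 1 array was left out.

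Ppargc1b encodes the related coactivator PGC-1β. Its mean was lower in both APP/PS1 groups than in WT, short of the threshold for APP/PS1 vehicle and far from it for UA. Its level ran over 1.10, 1.27 and 1.48 (lowest, median and highest) on UA arrays and over 0.92, 1.18 and 1.43 on APP/PS1 vehicle arrays. WT arrays had 1.28, 1.49 and 1.86. All 7 APP/PS1 vehicle arrays and all 6 UA arrays lay below the WT mean, although the ranges overlapped. The APP/PS1 vehicle minus WT difference was -0.31 (SE 0.103, limma adjusted p = 0.0827) and UA minus WT was -0.23 (SE 0.107, adjusted p = 0.562). UA minus APP/PS1 vehicle was 0.08, with a 95% interval of -0.13 to 0.30. The dimmer Ppargc1b probe gave -0.39, -0.26 and 0.13 for those 3 comparisons and correlated with the first at r = 0.58. Without WT replicate 3 the APP/PS1 vehicle minus WT difference was -0.35 and passed the test (adjusted p = 0.0471). Within slide 1 it was -0.32 (adjusted p = 0.355).

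**Figure D2:**
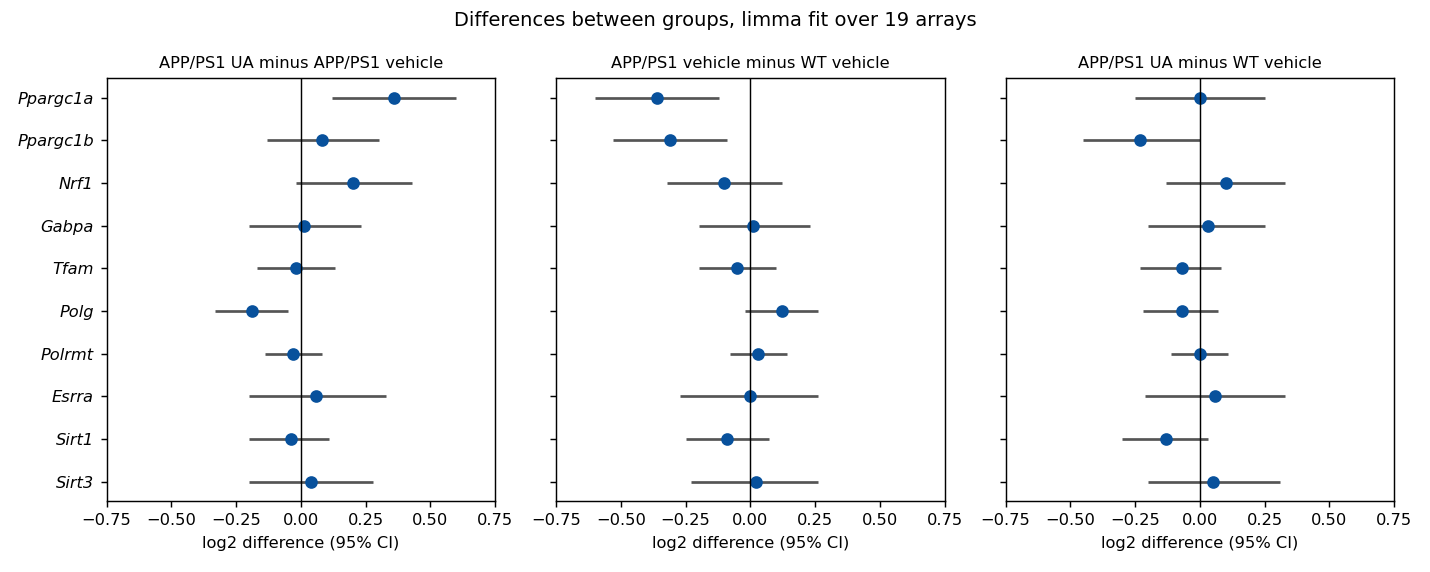
Log2 difference of each of the 10 genes (points) with its 95% interval (lines) from the limma fit over 19 arrays, for APP/PS1 UA minus APP/PS1 vehicle, APP/PS1 vehicle minus WT vehicle and APP/PS1 UA minus WT vehicle. Ppargc1a lies at 0.36, -0.36 and 0.00 and Polg at -0.19, 0.12 and -0.07; no gene has an adjusted p under 0.05.

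Nrf1, the factor whose sites stand upstream of many respiratory genes, showed the next largest difference with UA. UA arrays had -0.18, -0.07 and 0.07 as lowest, median and highest level, APP/PS1 vehicle arrays -0.53, -0.25 and -0.08, and WT arrays -0.73, -0.09 and 0.07. At this brightest probe all 6 UA arrays lay above the APP/PS1 vehicle mean, and the lowest WT array, replicate 1, lay far below the other WT arrays. The UA minus APP/PS1 vehicle difference was 0.20 (SE 0.106, limma adjusted p = 0.361), and APP/PS1 vehicle minus WT was -0.10 (SE 0.106, adjusted p = 0.581). The other tested Nrf1 probes gave 0.14 and 0.19 for UA minus APP/PS1 vehicle and -0.13 and -0.11 for APP/PS1 vehicle minus WT. Their correlations over arrays with each other and with the first probe lay only between -0.26 and 0.40. The remaining Nrf1 probe stayed at background on all 19 arrays and was not tested. With slide as a fixed block, the APP/PS1 vehicle minus WT difference was 0.03.

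Gabpa, which encodes the DNA-binding subunit of GABP, averaged -0.54 ± 0.21 on UA arrays, -0.55 ± 0.22 on APP/PS1 vehicle arrays and -0.57 ± 0.09 on WT arrays (SD, n = 6, 7 and 6). The differences at this probe were 0.01 for UA minus APP/PS1 vehicle and 0.01 for APP/PS1 vehicle minus WT, with 95% intervals of -0.20 to 0.23 for both. The pair of dimmer Gabpa probes disagreed with it: they gave -0.20 and -0.18 for UA minus APP/PS1 vehicle and 0.25 and 0.23 for APP/PS1 vehicle minus WT, with limma adjusted p of 0.541, 0.506, 0.313 and 0.271. At the dimmer probe with -0.20 and 0.25, APP/PS1 vehicle replicate 1 was at -1.15, with the next vehicle array at -1.88, so 1 array weighs on both values. The 3 probes correlated at r = 0.20 to 0.38 over arrays, so the gene's level is not settled by this array.

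Esrra encodes the estrogen-related receptor ERRα, a main partner of PGC-1α. It averaged 3.70 ± 0.11 on UA arrays, 3.63 ± 0.15 on APP/PS1 vehicle arrays and 3.64 ± 0.36 on WT arrays. The wide WT spread came from replicate 1 at 2.99, the same array that was low at the brightest Nrf1 probe. The other WT arrays ran from 3.55 to 3.99. UA minus APP/PS1 vehicle was 0.06 (95% interval -0.20 to 0.33), APP/PS1 vehicle minus WT 0.00 (-0.27 to 0.26) and UA minus WT 0.06 (-0.21 to 0.33). Over the 19 arrays, with group means taken off, Esrra and the brightest Nrf1 probe went together at r = 0.89 (Spearman 0.79). Without the 2 arrays farthest out in Nrf1 (WT replicate 1 and APP/PS1 vehicle replicate 3), r was 0.62. Both values come from the same arrays and share their RNA quality and scaling. The other Nrf1 probes were not set against Esrra. At one of them WT replicate 1, the lowest WT array for Esrra, was the highest WT array (-0.98).

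Of the mtDNA machinery, Tfam and Polrmt showed smaller differences than Polg. Tfam, the packaging and transcription factor, averaged 1.65 ± 0.12 on UA arrays, 1.67 ± 0.14 on APP/PS1 vehicle arrays and 1.72 ± 0.07 on WT arrays. Its differences were -0.02 for UA minus APP/PS1 vehicle (95% interval -0.17 to 0.13) and -0.05 for APP/PS1 vehicle minus WT (-0.20 to 0.10). The second Tfam probe gave -0.03 and 0.06 for those comparisons, and the 2 probes correlated at r = 0.27 over arrays. At that second probe WT replicate 1 was at 0.23, with the other WT arrays at 0.95 to 1.10. Polrmt, the mitochondrial RNA polymerase, had SDs of 0.06 to 0.07 in each group and the narrowest intervals of the 10 genes: UA minus APP/PS1 vehicle was -0.03 (-0.14 to 0.08), APP/PS1 vehicle minus WT 0.03 (-0.08 to 0.14) and UA minus WT 0.00 (-0.11 to 0.11).

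Polg encodes the catalytic subunit of the polymerase that copies mtDNA. Among Tfam, Polg and Polrmt, it alone had an unadjusted limma p under 0.05 in UA against APP/PS1 vehicle, with the lower level on UA. Such a p was found for 15.5% of all genes. On the lists below, 2 of 15 mtDNA copying genes and 3 of 14 mtDNA transcription genes had one. The Polg level was 0.41, 0.53 and 0.68 (lowest, median and highest) on UA arrays and 0.61, 0.71 and 0.92 on APP/PS1 vehicle arrays. On WT arrays it was 0.47, 0.59 and 0.76. No UA array reached the APP/PS1 vehicle mean, and all 7 vehicle arrays lay above the WT mean, but the ranges overlapped. The UA minus APP/PS1 vehicle difference was -0.19 (SE 0.067, 1.14-fold lower, limma adjusted p = 0.208), and APP/PS1 vehicle minus WT was 0.12 (SE 0.067, adjusted p = 0.290). All 3 Polg probes went the same way with UA, by -0.19, -0.19 and -0.23, and correlated at r = 0.78 to 0.91 over arrays. At the third probe UA also lay below WT, by -0.21 (adjusted p = 0.388). Within slide 2 the UA minus APP/PS1 vehicle difference was -0.15 (adjusted p = 0.904), from 0.58 on 3 UA arrays and 0.73 on 5 APP/PS1 vehicle arrays.

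**Figure D3:**
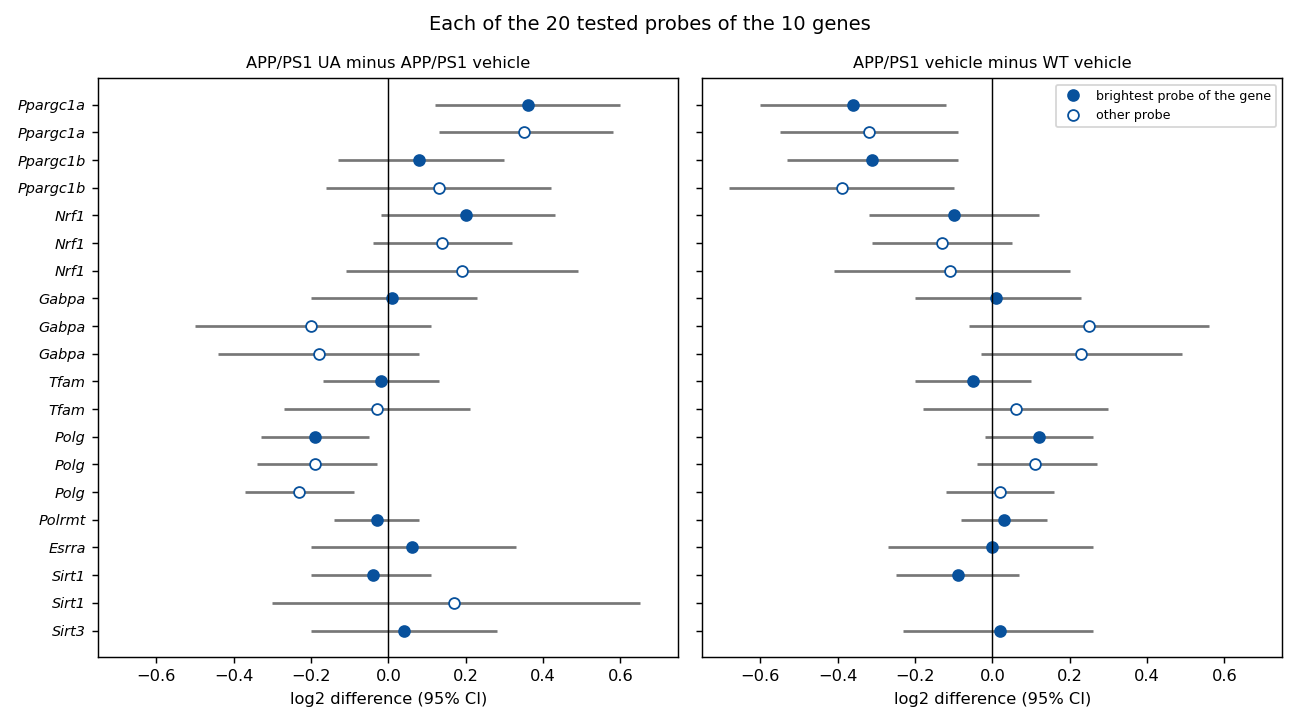
Log2 difference (points) with its 95% interval (lines) at each of the 20 tested probes of the 10 genes, for APP/PS1 UA minus APP/PS1 vehicle and APP/PS1 vehicle minus WT vehicle; filled points are the brightest probe of a gene. The probes of Ppargc1a (0.36 and 0.35) and of Polg (-0.19, -0.19 and -0.23) agree within their intervals for UA minus APP/PS1 vehicle, and those of Gabpa and Sirt1 lie on both sides of 0. The dim Sirt1 probe is not drawn against WT, where it was above background on 2 of 6 arrays.

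The 3 groups overlapped for both sirtuin genes. Sirt1 averaged 0.48 ± 0.11 on UA arrays, 0.52 ± 0.15 on APP/PS1 vehicle arrays and 0.61 ± 0.09 on WT arrays. All 6 UA arrays lay below the WT mean, and the UA minus WT difference was -0.13 (95% interval -0.30 to 0.03, limma adjusted p = 0.640). The second Sirt1 probe lay near background, well above it on 5 of 6 UA, 6 of 7 APP/PS1 vehicle and 2 of 6 WT arrays. With most WT arrays at background, no difference to WT is given for it. Sirt3, the mitochondrial deacetylase, averaged 4.37 ± 0.17 on UA arrays, 4.33 ± 0.25 on APP/PS1 vehicle arrays and 4.32 ± 0.17 on WT arrays. UA minus APP/PS1 vehicle was 0.04 (95% interval -0.20 to 0.28) and APP/PS1 vehicle minus WT was 0.02 (-0.23 to 0.26).

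The genes around these regulators were read from 8 lists, some of which share a gene. In UA against APP/PS1 vehicle and in UA against WT, no gene of the 8 lists passed the test, beside the 0% and 0.0938% of all genes given above. In APP/PS1 vehicle against WT, where 5.02% of all genes were called, 8 of the 132 tested genes on the lists passed (6.06%, near that background): 2 rose and 6 fell. All 8 lost the call when slide was a fixed block or when slide 1 alone was used, each with its sign kept, and the same 8 passed with slide as a random block. Without APP/PS1 vehicle arrays 3 and 7, Atp5a1, Kcnc2 and Sucla2 lost the call (limma adjusted p = 0.0939, 0.0768 and 0.0695) and the other 5 kept it. The list of nuclear respiratory factor targets then had 1 higher and 2 lower genes past the test.

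Among 28 partners of PGC-1 and nuclear receptors, 1 fell and none rose in APP/PS1 vehicle against WT, with a median of -0.103. The gene that fell was Esrrg, the estrogen-related receptor ERRγ, a neuronal partner of PGC-1α. Esrrg had 0.58, 0.83 and 0.87 (lowest, median and highest) on UA arrays, 0.00, 0.46 and 0.75 on APP/PS1 vehicle arrays and 0.73, 0.89 and 1.08 on WT arrays. Only 1 of the vehicle arrays, at 0.75, reached the range of the WT arrays. Esrrg was lower by -0.48 in APP/PS1 vehicle than in WT (SE 0.0963, limma adjusted p = 0.00936), and UA minus APP/PS1 vehicle was 0.36 (adjusted p = 0.131). The Esrrg call held with each of the 19 arrays left out in turn (adjusted p 0.00291 to 0.0323), and it was -0.48 with adjusted p = 0.160 under the slide block. Of the 8 called list genes, Esrrg and Gpx1 also passed under each of the 7 alternatives of scaling, filter, probe averaging, sex, replicate block and the left-out pair of arrays. Of the 28 genes, 22 lay below 0 in APP/PS1 vehicle minus WT and 21 above 0 in UA minus APP/PS1 vehicle, comparisons that share the vehicle arrays. Pprc1, the third coactivator of the PGC-1 family, was at -0.25 in APP/PS1 vehicle minus WT (adjusted p = 0.0551) and -0.22 in UA minus WT (adjusted p = 0.425).

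**Figure D4:**
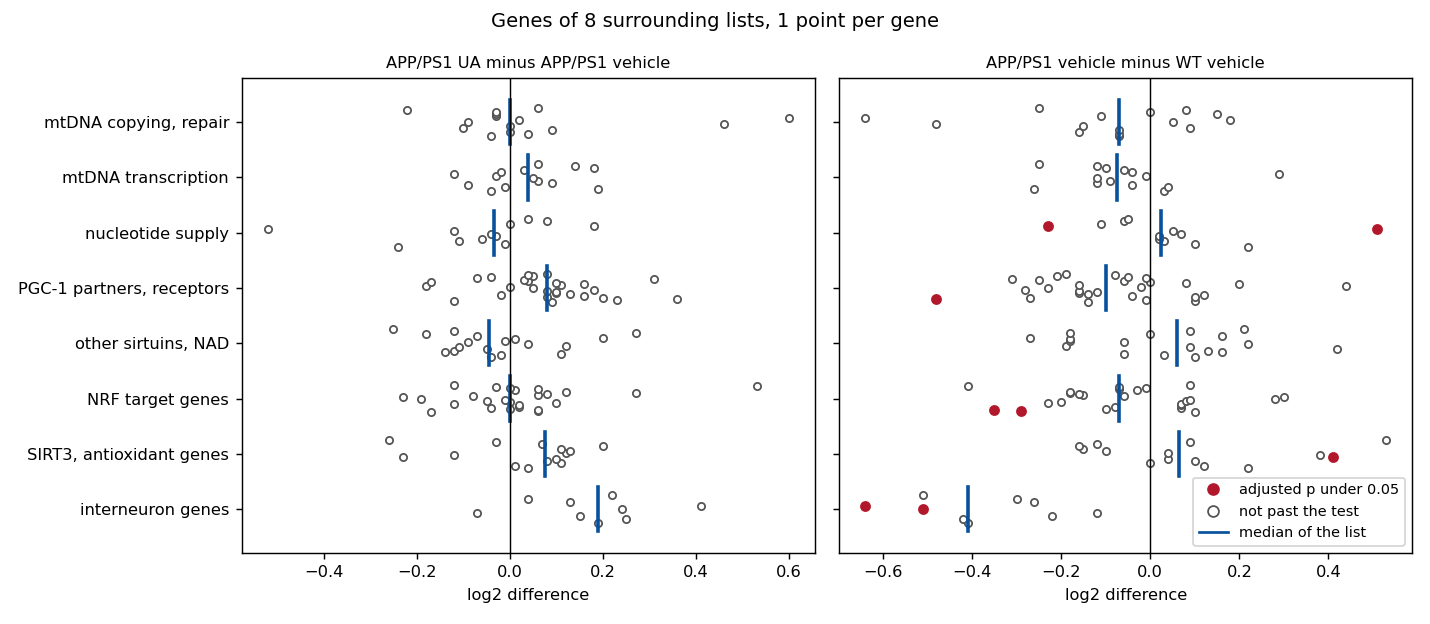
Log2 difference of each tested gene (points) in 8 lists around the regulators, for APP/PS1 UA minus APP/PS1 vehicle and APP/PS1 vehicle minus WT vehicle; filled red points passed the test and blue bars are list medians. The interneuron genes have medians of 0.189 and -0.407 (0.005 and -0.141 without APP/PS1 vehicle arrays 3 and 7). The mtDNA copying list has medians of -0.002 and -0.070 and the mtDNA transcription list 0.038 and -0.073, with no gene past the test.

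The lists were chosen with earlier results of these data known, so the rank of a list is no independent support. The list of genes linked to PGC-1α in parvalbumin interneurons had the lowest median of the 8 lists in APP/PS1 vehicle minus WT. All 9 of its genes lay below 0, with a median of -0.407, and 2 of them fell: the fast potassium channel genes Kcnc1 (-0.51, SE 0.110, limma adjusted p = 0.0149) and Kcnc2 (-0.64, SE 0.157, adjusted p = 0.0284). Kcnc1 had 1.56, 1.82 and 2.12 (lowest, median and highest) on UA arrays, 1.20, 1.65 and 1.89 on APP/PS1 vehicle arrays and 1.91, 2.10 and 2.27 on WT arrays, so every vehicle array lay below every WT array. Of all genes, 2.34% had such separate groups, and Kcnc1 was named for passing the test in this comparison, so the separation is no further support. Kcnc2 had 1.18, 1.57 and 1.92 on UA arrays, 0.88, 1.05 and 1.75 on APP/PS1 vehicle arrays and 1.24, 1.90 and 2.08 on WT arrays, and those groups overlapped. In UA minus APP/PS1 vehicle, 8 of the 9 lay above 0 with a median of 0.189, Kcnc2 at 0.41 (adjusted p = 0.228) and Kcnc1 at 0.24 (adjusted p = 0.306). Gad1 and Cplx1, for GABA synthesis and transmitter release, were at -0.42 and -0.41 in APP/PS1 vehicle minus WT (adjusted p = 0.0571 and 0.0614), and Pvalb itself, the parvalbumin gene, at -0.30 (adjusted p = 0.391). These list medians moved by over 1.5 times without APP/PS1 vehicle arrays 3 and 7. The median was then -0.141 in APP/PS1 vehicle minus WT, with all 9 still below 0, and 0.005 in UA minus APP/PS1 vehicle, with 5 of 9 above 0. Kcnc1 was then at -0.38 (adjusted p = 0.0402) and Kcnc2 at -0.61 (adjusted p = 0.0768). Averaging the probes of a gene brought Kcnc2 to -0.33 (adjusted p = 0.246), its call was also lost with no filter and with the replicate block, and the Kcnc1 call was lost under normexp and quantile normalization (-0.30, adjusted p = 0.0612). The Kcnc2 call was lost with any of 7 of the 19 arrays left out (adjusted p up to 0.0798), and the Kcnc1 call with none of them.

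**Figure D5:**
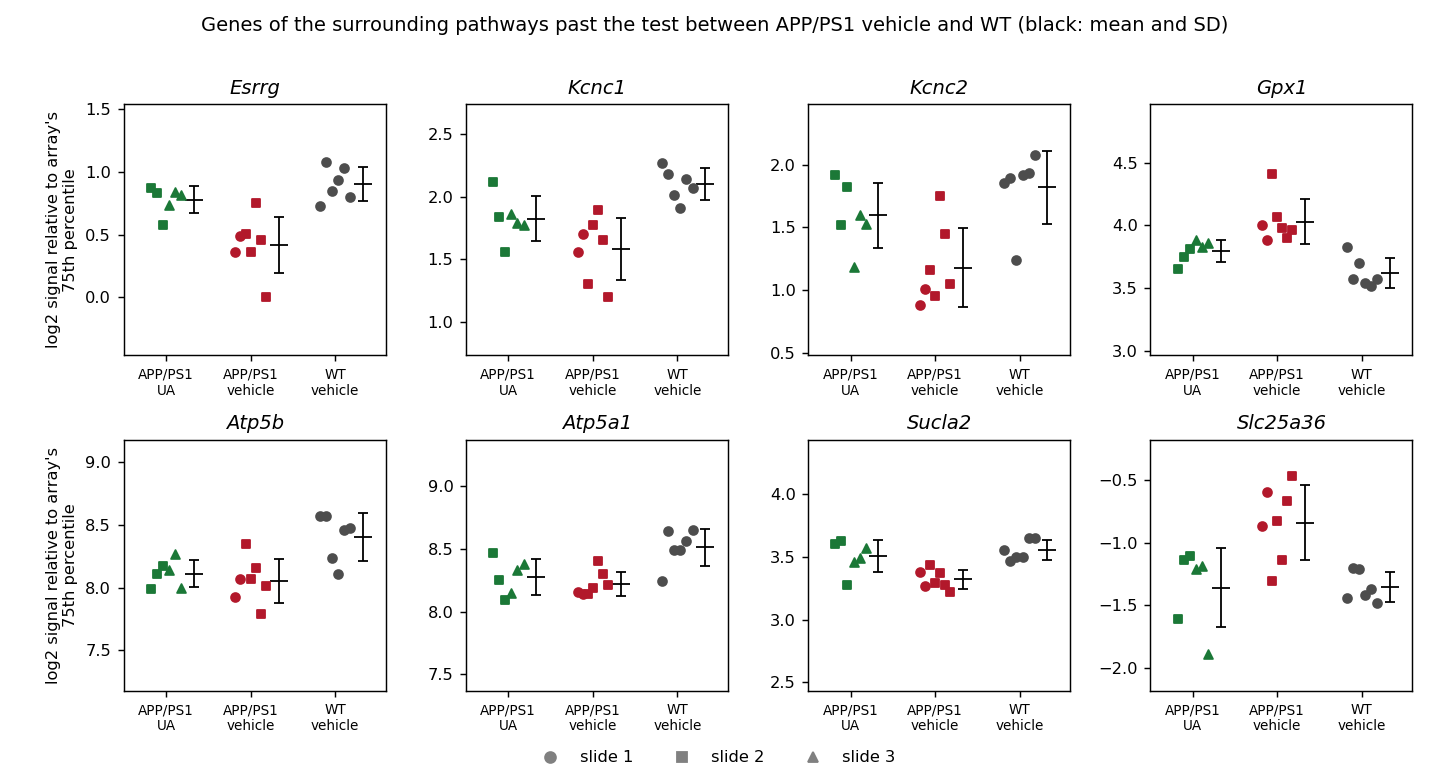
Level (log2 signal relative to the array's 75th percentile) of the 8 genes of the surrounding lists past the test between APP/PS1 vehicle and WT vehicle, with APP/PS1 UA beside them; points are arrays, their shape is the slide, and black bars are the mean and SD (n = 6, 7 and 6). Esrrg averages 0.78, 0.42 and 0.90 in APP/PS1 UA, APP/PS1 vehicle and WT vehicle, and Gpx1 3.79, 4.03 and 3.62.

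Levels of cell type markers differed alongside these genes. The mean level of 6 general neuron markers was 5.96 to 6.31 on UA arrays, 5.68 to 6.18 on APP/PS1 vehicle arrays and 6.06 to 6.53 on WT arrays, and all 6 lay below 0 in APP/PS1 vehicle minus WT (median -0.290), though none was called. For the 4 genes read as parvalbumin interneuron markers (Pvalb, Gad1, Gad2 and Tac1) it was 2.92 to 3.18 on UA arrays. It was 1.97 to 3.13 on APP/PS1 vehicle arrays and 3.06 to 3.42 on WT arrays. The lowest, 1.97, was APP/PS1 vehicle replicate 7. Of these markers, Pvalb, Gad1 and Gad2 are also on the interneuron list above, so the marker mean is largely a second reading of the same genes. The mean over 6 microglia markers was 2.12 to 2.49 on UA arrays, 2.42 to 2.64 on APP/PS1 vehicle arrays and 1.84 to 2.08 on WT arrays, and 4 of the 6 rose in APP/PS1 vehicle against WT. Of 6 astrocyte markers 3 rose. In that comparison 5.02% of all genes were called, with 683 of the 25599 tested called higher. The mean over the 6 astrocyte markers was 3.24 to 3.40 on UA arrays, 3.23 to 3.43 on APP/PS1 vehicle arrays and 2.89 to 3.14 on WT arrays. The mean over 7 choroid plexus markers ran from -1.93 to 4.23 on UA arrays, -3.74 to 4.82 on APP/PS1 vehicle arrays and -1.26 to 4.17 on WT arrays, a wide spread within every group. Their medians over arrays were 3.52 on UA, 3.42 on APP/PS1 vehicle and -0.40 on WT arrays. All 7 choroid plexus markers lay above 0 in APP/PS1 vehicle minus WT (median 1.787) and in UA minus WT (median 1.696), with none called. The mean over 6 oligodendrocyte markers was 3.07 to 4.46 on UA, 2.90 to 4.70 on APP/PS1 vehicle and 3.27 to 4.67 on WT arrays. All 6 lay above 0 in APP/PS1 vehicle minus WT (median 0.158) and below 0 in UA minus APP/PS1 vehicle (median -0.229). These comparisons share the vehicle arrays, and none of the 6 was called. All 5 vessel markers lay below 0 in UA minus APP/PS1 vehicle (median -0.156), with none called. The part of these shifts in the values of Ppargc1a, Esrrg, Kcnc1 and Kcnc2 was not tested, and in bulk tissue fewer cells of a type and less RNA per cell cannot be told apart. The 8 markers of hippocampal principal neurons were all well enough measured to test, and none was called.

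Few genes of the remaining lists passed the test. Among 25 targets of the nuclear respiratory factors, 2 fell in APP/PS1 vehicle against WT: the ATP synthase subunit genes Atp5b (-0.35, SE 0.093, limma adjusted p = 0.0386) and Atp5a1 (-0.29, SE 0.0787, adjusted p = 0.0397), with a list median of -0.067. Both calls were lost, and the differences shrank to -0.14 (adjusted p = 0.334) for Atp5b and -0.11 (adjusted p = 0.647) for Atp5a1, under normexp and quantile normalization. Averaging probes gave -0.17 (adjusted p = 0.161) and -0.24 (adjusted p = 0.0711), and both were also lost with no filter and with the replicate block. Atp5a1 also lost its call when scaled by the percentile over probes well above background on all arrays. In UA minus APP/PS1 vehicle the smallest p on that list was for Sdha, a subunit of succinate dehydrogenase, at 0.27 (adjusted p = 0.143). Among 14 SIRT3 substrates and antioxidant genes, Gpx1, the glutathione peroxidase gene, rose by 0.41 in APP/PS1 vehicle against WT (SE 0.0817, adjusted p = 0.0101). Gpx1 had 3.65, 3.82 and 3.88 (lowest, median and highest) on UA arrays, 3.88, 3.98 and 4.41 on APP/PS1 vehicle arrays and 3.52, 3.57 and 3.83 on WT arrays, so every vehicle array lay above every WT array. In UA minus APP/PS1 vehicle Gpx1 was at -0.23 (adjusted p = 0.206). Among 12 genes of mitochondrial nucleotide supply, the pyrimidine nucleotide carrier gene Slc25a36 rose by 0.51 (adjusted p = 0.0452) and the succinyl-CoA synthetase subunit gene Sucla2 fell by 0.23 (adjusted p = 0.0450). On UA arrays Sucla2 had 3.28, 3.53 and 3.63, against 3.22, 3.29 and 3.44 on APP/PS1 vehicle arrays and 3.47, 3.53 and 3.65 on WT arrays, with every vehicle array below every WT array. Gpx1 and Sucla2 were named for passing the test in this comparison, so their separate groups are no further support. The Slc25a36 and Sucla2 calls were lost with probes averaged, which brought Slc25a36 to 0.25 (adjusted p = 0.126), with no filter and with the replicate block. Sucla2 also lost its call under normexp and quantile normalization and when scaled by the percentile over probes well above background on all arrays. Slc25a36 was at -0.52 in UA minus APP/PS1 vehicle (adjusted p = 0.138). The Atp5b, Atp5a1, Slc25a36 and Sucla2 calls were lost with any of 9, 10, 13 and 13 of the 19 arrays left out, with adjusted p of up to 0.115. Each of these calls was also lost on the deposited score.

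No gene was called among 15 genes of mtDNA copying, repair and nucleoids, 14 genes of mtDNA transcription or 18 genes of the other sirtuins and NAD metabolism in any comparison. Their medians in APP/PS1 vehicle minus WT were -0.070, -0.073 and 0.061. The smallest p in each was for Lonp1, the mitochondrial protease that degrades TFAM (-0.15, limma adjusted p = 0.105), Slirp, an RNA-binding protein that stabilises mitochondrial mRNA (0.29, adjusted p = 0.0652), and Naprt, an NAD synthesis enzyme (0.42, adjusted p = 0.0560). In UA minus APP/PS1 vehicle they were Top3a, a topoisomerase that separates mtDNA circles (-0.22, adjusted p = 0.214), Tfb1m, a methyltransferase of mitochondrial ribosomal RNA (0.18, adjusted p = 0.221), and Sirt5, a mitochondrial deacylase (0.27, adjusted p = 0.213). In UA minus WT the genes of smallest p over the 8 lists were Acadl, a fatty acid oxidation enzyme and SIRT3 substrate (0.26, adjusted p = 0.252), Atp5b (-0.29, adjusted p = 0.398), Polg2, the accessory subunit of the mtDNA polymerase (0.20, adjusted p = 0.401), Pprc1 (-0.22, given above), Naprt (0.37, adjusted p = 0.425), Kcnc1 (-0.27, adjusted p = 0.505), Slirp (0.17, adjusted p = 0.613) and Suclg1, a succinyl-CoA synthetase subunit (-0.11, adjusted p = 0.664), 1 for each list. The 15 genes encoded by mtDNA itself matched no named probe and were not analysed here, so these data say nothing of mtDNA copy number or its transcripts.

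Across the 19 arrays, with group means taken off, the genes whose level was most like that of Ppargc1a were Pcdh7, a protocadherin (r = 0.88), Elovl4, a fatty acid elongase (r = 0.87), and Bace1, the β-secretase gene (r = 0.87). Without the 2 arrays farthest out in Ppargc1a, APP/PS1 vehicle replicate 5 and UA replicate 3, r was 0.82, 0.80 and 0.74. Their group means were 1.38 on UA, 1.04 on APP/PS1 vehicle and 1.38 on WT arrays for Pcdh7, 2.27, 1.92 and 2.30 for Elovl4, and 2.92, 2.78 and 3.06 for Bace1. Among the genes above, Kcnc2 went with Ppargc1a at r = 0.71 (0.55 without those arrays), Esrrg at 0.42 and Kcnc1 at 0.25. These are descriptions over arrays that share their scaling and dissection.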

How the data were processed

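Hippocampal RNA of 19 mice was hybridised, 1 array per mouse. Per the labels, 200 ng of RNA per mouse gave Cy3-labelled cRNA, and no red sample is described. Spot intensity came from Agilent Feature Extraction 12.0.3.1 with a 2-colour expression protocol, per the file headers, which list a background-subtracted signal and dye normalization settings. The authors' deposited values, a score per spot, equalled each array's standardised log10 intensity (mean 0, SD 1) to within 0.005.

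From there, the 3671 control spots of 62976 and any non-uniform spots were dropped, replicate spots of a probe were averaged, and log2 of the deposited processed intensity minus the array's 75th percentile over probes was taken. Probes well above background on at least 6 arrays and measured at least 2 times per group were kept (33450). Accessions were matched to RefSeq symbols (GRCm38.p6), which named 32994 probes. The brightest probe stood for a gene. A single limma 3.58.1 fit (R 4.3.3) over all 19 arrays gave 3 differences. Its 2-sided p-values were adjusted by Benjamini-Hochberg across 25599 genes, and probes were also fitted as a separate table. The fit was tested on simulated data.

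The rule for named genes took every one of the 10 genes, up to 4 called genes of each list or else the 1 of smallest p, and the 3 genes most like Ppargc1a. Genes and lists were chosen with earlier results of these data known, so they are no independent support. The planned normexp alternative used median spot signals (offset 50). Other alternatives covered scaling, the deposited score, the filter, probe averaging, slide, replicate number, sex and leaving out arrays. Replicate numbers did not pair the samples.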

Additional observations from a re-analysis of the deposited data

Results flagged for a closer look

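In 30 groups (10 genes in 3 groups), the gap between an extreme array and its neighbour was set against the group's range, and 2 exceeded Dixon's 95% limit, where chance flags about 1 in 20. At the brightest Nrf1 probe, WT replicate 1 had a level of -0.73, with the nearest WT array at -0.17. The other tested Nrf1 probes did not have it low. It was the highest WT array at one (-0.98) and within the WT range of -3.81 to -3.00 at the other (-3.41). The same array was the lowest WT array for Esrra. UA replicate 3 had a Sirt1 level of 0.26, with the nearest UA array at 0.49.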

How the results depend on the processing

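The number of the 10 genes past the test was 0 under each planned and added alternative and comparison, except that leaving out 1 array gave 0 to 2 for APP/PS1 vehicle against WT (Ppargc1a, and with WT replicate 3 left out also Ppargc1b); for the other comparisons it gave 0. Of 320 values of single genes under all alternatives other than leaving out 1 array, 32 changed sign by no more than 1 SE and 15 by more. Of 570 with 1 array left out these counts were 39 and 2. Averaging a gene's probes turned UA minus APP/PS1 vehicle to -0.12 for Gabpa and 0.06 for Sirt1, and Sirt1 to 0.22 in APP/PS1 vehicle minus WT and 0.29 in UA minus WT. The last 2 rest on a Sirt1 probe that only 2 of 6 WT arrays measured above background, so they show no direction. Slide as a fixed block gave, for APP/PS1 vehicle minus WT, 0.03 for Nrf1, -0.02 for Polrmt and 0.03 for Sirt1, for UA minus APP/PS1 vehicle -0.14 for Gabpa, and for UA minus WT -0.11 for Gabpa, 0.01 for Sirt1, -0.10 for Sirt3, -0.01 for Gpx1 and 0.21 for Slc25a36. Within 1 slide, Nrf1 was at 0.03, Polrmt at -0.02 and Sirt1 at 0.03 in APP/PS1 vehicle minus WT, and Gabpa at -0.14 in UA minus APP/PS1 vehicle. Leaving out 1 array moved UA minus WT between -0.07 and 0.13 for Esrra and between -0.01 and 0.15 for Nrf1, lowest without WT replicate 1. The cause of the slide shifts was not tested. Over all genes, the APP/PS1 vehicle against WT count of 1286 (683 higher) became 73 with the slide block, 22 within slide 1, 2257 with slide as a random block, 354 with no filter (290 higher), 804 on the deposited score (324 higher), 1966 with sex, 673 without APP/PS1 vehicle arrays 3 and 7, an alternative added after seeing the data, and 338 with replicate block. Averaging a gene's probes gave 973, 604 of them higher, and the percentile over probes well above background on all arrays 1276, 829 higher. For UA against WT, 24 became 4 with the slide block, 99 with slide as a random block and 12 with replicate block. Leaving out 1 array gave 387 to 2259 for APP/PS1 vehicle against WT and 16 to 35 for UA against WT, and 10 for UA against APP/PS1 vehicle without APP/PS1 vehicle replicate 4. The same-numbered arrays deviated together at r = -0.55 to 0.39 and share only a number, and with the replicate block the 10 genes had 0 calls in each comparison. The probes of Nrf1, Gabpa and Sirt1 nearest background limit what can be read from them.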
